A study of Mus musculus with 5 samples.

Results

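Box H/ACA small nucleolar RNAs (snoRNAs) were taken as every name beginning with SNORA among the snoRNA names of the melRNA-seq count tables. This gave 62 names of 1042 listed in all, against 86 names of box C/D snoRNAs (SNORD). melRNA-seq is the sequencing of medium length RNAs from end to end, with inserts of 115 to 255 nt. By the paper's account, a read that holds the 3′ adaptor should stand for a whole RNA. Reads of the large rRNAs were also listed, so this did not hold for every read. Total RNA of whole testis from C57BL/6J mice at postnatal day 7 was left untreated or was treated with TAP, an enzyme that opens caps and triphosphates at the 5′ end, or with 5′ polyphosphatase (5Pase), which converts triphosphates but not caps, in 1 library each. RNA of spermatogonia sorted by FACS with EpCAM from C57BL/6J testes of the same age was treated with RppH, a pyrophosphohydrolase that acts on triphosphates and caps, in 2 replicate libraries. Testis libraries were made with the TruSeq kit and spermatogonia libraries with the NEBNext kit, so that tissue, enzyme and kit cannot be told apart in any comparison of the 2 sources. Whole testis held somatic and germ cells. The count tables held no messenger RNA, and the labelled tissue and cell type could not be checked against marker genes.

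Box H/ACA snoRNAs are folded into hairpins joined by a hinge (box H, ANANNA) and followed by a 3′ tail with the trinucleotide ACA a few bases from the end. They are bound by dyskerin, NHP2, NOP10 and GAR1, and most of them direct the conversion of chosen uridines of rRNA into pseudouridine. SNORA73, also called U17 or E1, is an exception that acts in the cleavage of the rRNA precursor. Most mammalian members are cut out of introns of host genes and trimmed at both ends, which leaves a 5′ monophosphate that can be ligated without an enzyme that opens the 5′ end.

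Names in the tables were family names without a final letter, and 32 of the 62 could be matched by symbol to 35 annotated mouse genes of 121 to 205 nt at 33 loci in GENCODE M21 (GRCm38), since Snora16a and Snora43 were each annotated as 2 overlapping genes. The other 30, among them SNORA8, SNORA72, SNORA29 and SNORA14, were matched to none. Of the 35 annotated genes, 30 (85.7%) had ACA exactly 3 bases from the annotated 3′ end, read on the gene's own strand, against 0 of 98 Snord genes and 246 of 1374 other annotated snoRNA genes (17.9%). A hinge of the form ANANNA lay in the middle stretch (from 0.4 to 0.6 of the length) of 31 of them (88.6%), against 39.8% of Snord genes and 74.1% of the other snoRNA genes. A total of 31 genes lay inside a host gene, 26 of them within an intron in every host and 5 overlapping an exon of a host transcript. The following 3 are shown because their names led the reads of the testis or the spermatogonia libraries, with the ACA in capitals where it was 3 bases from the end.
Snora73a: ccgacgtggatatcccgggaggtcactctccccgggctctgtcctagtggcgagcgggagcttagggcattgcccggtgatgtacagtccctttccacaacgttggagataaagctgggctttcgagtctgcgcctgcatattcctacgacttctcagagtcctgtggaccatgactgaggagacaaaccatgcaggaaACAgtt
Snora28: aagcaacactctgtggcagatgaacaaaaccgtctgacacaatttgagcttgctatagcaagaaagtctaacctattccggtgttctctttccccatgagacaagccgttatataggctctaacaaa
Snora2b: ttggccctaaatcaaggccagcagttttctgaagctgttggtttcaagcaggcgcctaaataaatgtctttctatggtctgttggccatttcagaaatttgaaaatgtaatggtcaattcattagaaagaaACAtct
Snora73a (chr4:132352775-132352979, minus strand) lay in an intron of Rcc1 and overlapped an exon of Snhg3. It was 96.6% identical to Snora73b, 248 bases away in the same hosts, and reads of the pair were listed under the single name SNORA73. Snora28 (chr12:111540941-111541067, plus strand) lay in an intron of Eif5 and Snora2b (chr15:98526346-98526482, minus strand) in an intron of Kansl2. Snora28 was annotated with an end that did not place ACA at that distance. Copies of a family too alike to be told apart were counted as one, and close families could exchange reads.

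The libraries differed in depth, with 1067851 to 1160933 listed reads in testis and 1993087 and 3166394 in spermatogonia, of which 19.2% to 50.2% were 5.8S rRNA. Levels are given as reads per 1000000 5.8S rRNA reads (RPM), the internal standard of the study, and where the denominator mattered also per listed read. With 3 reads as the limit that a count of 0 allows, a name without a read could have a level of up to 2.43 to 14.4 RPM, depending on the library. Intervals cover counting error only, at 95%, and leave out variation between libraries. Reads had no molecular identifiers, so duplicate reads could not be removed and the intervals may be too narrow. As a check of the enzymes, 5S rRNA, which carries a triphosphate, was 4.14-fold (TAP) and 7.18-fold (5Pase) higher than in the untreated library per 5.8S rRNA read. The capped U1 snRNA was 7.33-fold higher after TAP and 1.83-fold higher after 5Pase. Between the 2 spermatogonia replicates, 5S rRNA differed 4.27-fold, U1 3.63-fold and U5 snRNA 3.57-fold, all higher in replicate 2, whereas summed H/ACA reads were 0.845 times as high in replicate 2 (0.831 to 0.860).

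All H/ACA names together had 25948 reads in untreated testis, 12815 after TAP, 15984 after 5Pase, and 51571 and 18167 in the spermatogonia replicates. They made up 2.24% of listed reads in untreated testis, 1.20% after TAP, 1.48% after 5Pase, and 1.63% and 0.912% in spermatogonia. Among snoRNA reads, their share was 3.21% in untreated testis, 7.43% after TAP, 1.94% after 5Pase, and 9.60% and 6.61% in spermatogonia. The H/ACA share of snoRNA reads was therefore lowest after 5Pase and highest in a spermatogonia replicate, with box C/D snoRNAs holding most of the rest in every library. A total of 54 of the 62 names had a read in all 5 libraries and 25 had 20 or more in all 5. SNORA1, SNORA19, SNORA20, SNORA25, SNORA33, SNORA41, SNORA58 and SNORA69 stayed under 20 reads in every library, and SNORA32 and SNORA79 were listed in spermatogonia only.

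Reads were concentrated on few names. In untreated testis, SNORA73 (27.5% of H/ACA reads), SNORA68 (23.2%), SNORA28 (16.3%), SNORA72 (14.7%) and SNORA8 (2.04%) led. After TAP, the order was SNORA73 (37.5%), SNORA28 (14.8%), SNORA72 (11.4%), SNORA68 (8.93%) and SNORA36 (4.88%). After 5Pase, it was SNORA72 (25.0%), SNORA28 (20.9%), SNORA68 (18.7%), SNORA73 (13.2%) and SNORA8 (3.10%). The same 4 names thus led the class in testis under each treatment, and SNORA73 moved from the first to the fourth place with 5Pase. In spermatogonia replicate 1, SNORA8 (55.0%) was followed by SNORA73 (8.52%), SNORA2 (7.57%), SNORA29 (5.30%) and SNORA14 (3.60%). In replicate 2, SNORA8 (54.2%) was followed by SNORA73 (10.5%), SNORA2 (7.56%), SNORA14 (3.79%) and SNORA68 (3.40%). Only SNORA73 was among the 5 most read names of all 5 libraries.

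The 5 most read names held 83.7% of H/ACA reads in untreated testis (Wilson interval 83.3% to 84.2%), 77.5% after TAP (76.8% to 78.2%), 80.9% after 5Pase (80.2% to 81.5%), and 80.0% (79.7% to 80.4%) and 79.4% (78.8% to 80.0%) in spermatogonia. For box C/D snoRNAs, a class with more names, the corresponding shares were 56.1%, 49.9%, 56.8%, 42.3% and 43.0%. To reach 90% of H/ACA reads, 9 names were needed in untreated testis, 15 after TAP and 11 in each of the other libraries. The number of equally read names that would give the same concentration (inverse Simpson index) was 5.57, 5.32 and 6.19 in untreated, TAP and 5Pase testis and 3.10 and 3.17 in spermatogonia, where a single name held most of the reads. Across names with 20 or more reads in either library of a pair, the rank order of reads was close among testis libraries (Spearman's rho 0.81 to 0.85 over 38 to 39 names) and between the spermatogonia replicates (0.94 over 48 names), and farther apart between testis and spermatogonia (0.30 to 0.43 over 49 to 54 names). These coefficients describe names within libraries, which share their library and its depth.

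**Figure D1:**
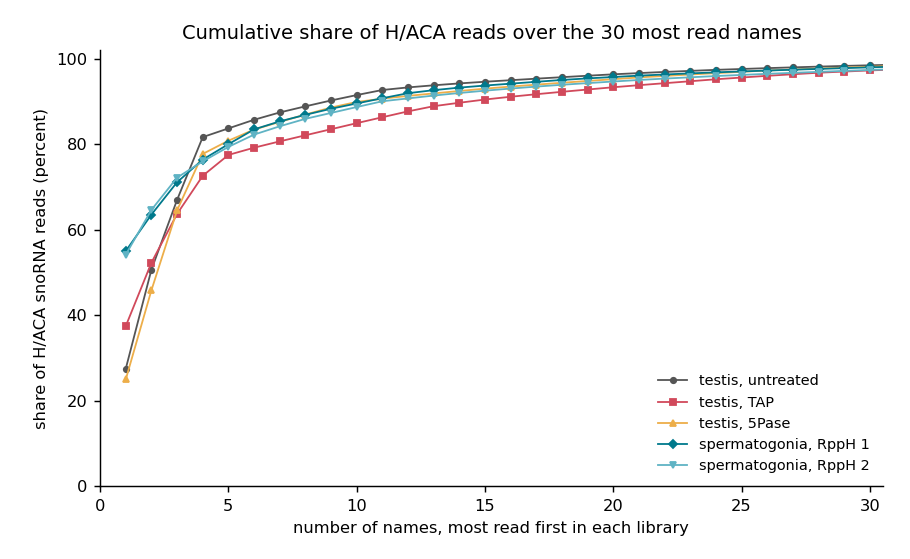
Cumulative share of H/ACA snoRNA reads (percent, vertical axis) against the number of names taken, most read first in each library (horizontal axis, first 30 names), with 1 line for each of the 5 libraries. The spermatogonia lines start at 55.0% and 54.2% with a single name, the testis lines at 25.0% to 37.5%, and all reach 77.5% to 83.7% with 5 names.

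**Figure D2:**
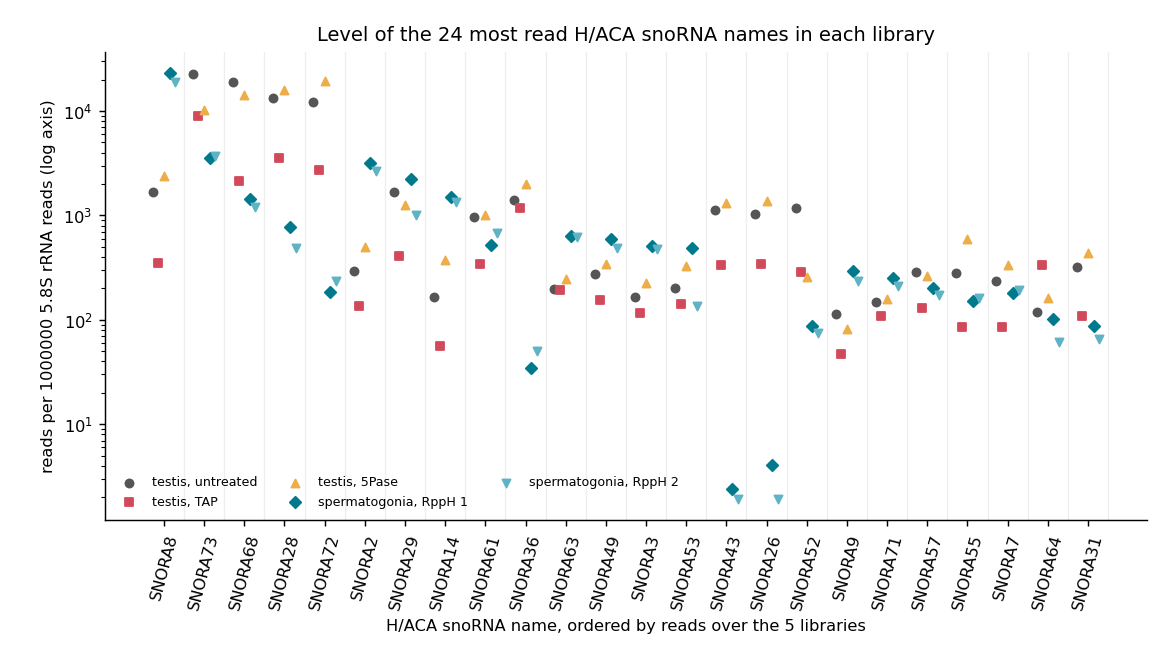
Level of the 24 most read H/ACA snoRNA names as reads per 1000000 5.8S rRNA reads (logarithmic vertical axis), with 1 point for each of the 5 libraries and names ordered by reads over all of them. SNORA8, SNORA2 and SNORA14 were highest in the 2 spermatogonia libraries, and SNORA72, SNORA36, SNORA43 and SNORA26 were lowest there.

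The first comparison concerned what TAP did to the recovery of H/ACA snoRNAs from testis RNA. Their summed level was 82082 RPM in the untreated library and 23908 RPM after TAP, a ratio of 0.291 (0.285 to 0.298). Per listed read the ratio was 0.537 (0.526 to 0.548). Box C/D snoRNAs were lower by more, at 0.118 of the untreated level per 5.8S rRNA read, so that H/ACA reads per box C/D read were 2.47-fold higher after TAP (2.42 to 2.52). With 1 library per treatment there was no replicate check, and none of these ratios has a test between treatments.

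Single names did not share 1 ratio. Of the 62 names, 39 had 20 or more reads in either library, and the median of their ratios was 0.410. Of these 39, 2 (5.13%) were more than 2-fold higher and 25 (64.1%) more than 2-fold lower after TAP, against 27% and 51.5% of all listed names with as many reads. Per listed read the counts were 4 higher and 9 lower, against 34.4% and 38.2% of all listed names. A name was taken to depart from its class where its ratio lay more than 2-fold from the median and its counting interval did not hold the median, a measure that does not depend on the denominator. Of the H/ACA names, 7 (17.9%) departed above and 3 (7.69%) below, against 37.3% and 33.6% of all listed names about their own median. Both shares were below those of all listed names. The other 29 names lay within 2-fold of the median, and the departing ones are described singly. SNORA44 and SNORA77 had under 20 reads untreated and met the minimum only through TAP, where they were high. SNORA30 had under 20 reads after TAP and met it only through the untreated library. The departures of these names, and the counts that include them, were partly set by this filter.

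SNORA64, assigned in human to pseudouridylation of 28S rRNA, stood out above the class, with 38 reads in untreated testis, 178 after TAP, 34 after 5Pase, and 126 and 32 in spermatogonia. Its level was 120 RPM untreated and 332 RPM after TAP, a ratio of 2.76 (1.95 to 3.92), while that with 5Pase was 1.36 (0.856 to 2.16). SNORA44, assigned to 18S rRNA, had 18 reads untreated, 52 after TAP and 15 after 5Pase, with a TAP ratio of 1.70 (0.997 to 2.91). SNORA65, another 28S rRNA guide, had 94 reads untreated, 176 after TAP and 66 after 5Pase, with ratios of 1.10 (0.860 to 1.42) for TAP and 1.07 (0.779 to 1.46) for 5Pase. All 3 lay above the median for TAP, by 6.75-fold for SNORA64, 4.16-fold for SNORA44 and 2.70-fold for SNORA65, and SNORA64 and SNORA65 were within 2-fold of the median for 5Pase. SNORA44 had under 20 reads in both libraries of the 5Pase comparison. The sequences are shown because these names lay farthest above the class for TAP among those with over 20 reads after TAP.
Snora64: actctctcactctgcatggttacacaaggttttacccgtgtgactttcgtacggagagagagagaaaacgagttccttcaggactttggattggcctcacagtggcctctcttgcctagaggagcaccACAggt
Snora65: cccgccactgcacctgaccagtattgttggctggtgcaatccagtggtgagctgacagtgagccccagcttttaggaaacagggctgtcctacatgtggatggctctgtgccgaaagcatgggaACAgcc
Snora44: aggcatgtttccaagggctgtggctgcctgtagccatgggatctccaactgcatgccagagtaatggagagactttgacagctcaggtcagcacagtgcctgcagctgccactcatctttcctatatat
Snora64 (chr17:24720772-24720905, plus strand) lay in an intron of Rps2 and Snora65 (chr2:32963291-32963420, plus strand) in an intron of Rpl12, both genes of ribosomal proteins. Snora44 (chr4:132309941-132310069, plus strand) overlapped an exon of the noncoding host Snhg12, which also holds Snora16a and Snora61 within 639 bases or fewer. SNORA16 had 45 reads untreated and 59 after TAP, a ratio of 0.773 (0.525 to 1.14), and SNORA61 had 308 and 182, a ratio of 0.348 (0.290 to 0.419). The 3 names of this host therefore had TAP ratios from 0.348 to 1.70, and the sequences of the genes were 50.3% to 53.4% identical in pairs.

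Of the other names above the median, SNORA36, which guides pseudouridylation of 18S rRNA, rested on the most reads. It had 444 reads untreated, 625 after TAP and 416 after 5Pase, with a TAP ratio of 0.830 (0.735 to 0.938), 2.03-fold above the median. SNORA63, with 63, 103 and 51 reads, had a TAP ratio of 0.964 (0.705 to 1.32). SNORA18, with 35, 52 and 66 reads, had a ratio of 0.876 (0.571 to 1.35) for TAP and was also the highest name for 5Pase, at 2.87 (1.90 to 4.32). The TAP levels of SNORA36, SNORA63 and SNORA18 were below the untreated levels, by less than those of the class. SNORA77 had 2 reads untreated, 20 after TAP and 2 after 5Pase, so that its ratio of 5.90 rested on few reads (exact interval 1.43 to 52.0). It was the name just inside the minimum of 20 reads, and SNORA70, with 18 reads untreated and 12 after TAP, was just outside it.

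SNORA68, which guides pseudouridylation of 28S rRNA, had the lowest ratio, with 6013 reads untreated, 1144 after TAP and 2989 after 5Pase. Its TAP ratio was 0.112 (0.105 to 0.120), or 0.207 per listed read, and its ratio with 5Pase was 0.756 (0.723 to 0.790). SNORA4 had 115 reads untreated, 29 after TAP and 13 after 5Pase, with ratios of 0.149 (0.0990 to 0.223) and 0.172 (0.0968 to 0.305). SNORA30 had 32 reads untreated, 9 after TAP and 29 after 5Pase, with ratios of 0.166 (0.0792 to 0.347) and 1.38 (0.833 to 2.28). SNORA4 was thus low after both enzymes, whereas SNORA30 was low after TAP and within 2-fold of the median after 5Pase. Of the other leading names of testis, SNORA73, SNORA28, SNORA72 and SNORA8 lay within 2-fold of the median after TAP. SNORA73 was near it, with a ratio of 0.397 (0.382 to 0.412). The others had intervals wholly below it, with ratios of 0.265 (0.251 to 0.279) for SNORA28, 0.226 (0.213 to 0.240) for SNORA72 and 0.211 (0.178 to 0.249) for SNORA8.

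The second comparison asked the same of 5Pase. The summed level was 76848 RPM, a ratio to untreated of 0.936 (0.917 to 0.956), and 0.661 per listed read (0.648 to 0.675). Box C/D snoRNAs were 1.58-fold higher per 5.8S rRNA read, so that H/ACA reads per box C/D read were 0.593 times as high as in the untreated library (0.581 to 0.604). The sum followed SNORA73. Without it, the ratio of the other 61 names was 1.12 (1.10 to 1.15), and the median of the 38 names with 20 or more reads was 1.27, both above the untreated level. Of these 38 names, 4 (10.5%) were more than 2-fold higher and 3 (7.89%) more than 2-fold lower, against 37.6% and 3.49% of all listed names. Per listed read the counts were 1 higher and 4 lower, against 25.8% and 5.24% of all listed names. From the class, 1 name (2.63%) departed above and 3 (7.89%) below, against 23.6% and 8.73% of all listed names. The share below was near that of all listed names, and the share above was smaller. SNORA46 had under 20 reads untreated and SNORA4 under 20 after 5Pase. Each met the minimum only through the library where it was higher, so these counts also depend on the filter.

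SNORA73, the member that acts in rRNA processing, had 7138 reads untreated, 4803 after TAP and 2109 after 5Pase. Its levels were 22579.7, 8961 and 10139.6 RPM in untreated, TAP and 5Pase testis, and the 5Pase ratio was 0.449 (0.428 to 0.472), or 0.353 times the median of the names. SNORA52, a guide for 28S rRNA, had 371 reads untreated, 155 after TAP and 54 after 5Pase, with ratios of 0.246 (0.204 to 0.297) for TAP and 0.221 (0.166 to 0.294) for 5Pase. It lay within 2-fold of the median for TAP and at 0.174 times the median for 5Pase. SNORA4, described above, had the lowest ratio with 5Pase. The gene of SNORA52 is shown because its name was low with 5Pase while the median of the class was above the untreated level.
Snora52: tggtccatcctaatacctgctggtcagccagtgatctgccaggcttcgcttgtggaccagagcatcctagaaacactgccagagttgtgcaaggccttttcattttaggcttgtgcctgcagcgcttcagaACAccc
Snora52 (chr7:141448803-141448939, plus strand) lay in an intron of Rplp2, a ribosomal protein gene. The 3 other leading testis names were at or above the untreated level after 5Pase, or somewhat below it, with ratios of 1.59 (1.52 to 1.67) for SNORA72, 1.20 (1.14 to 1.25) for SNORA28 and 0.756 (0.723 to 0.790) for SNORA68. Names more than 2-fold higher other than SNORA18 were SNORA46 (2.41, 1.32 to 4.43), SNORA14 (2.25, 1.58 to 3.20) and SNORA55 (2.14, 1.63 to 2.81), none of which departed from the median by 2-fold. SNORA62, with 21 reads untreated and 19 after 5Pase, was just inside the minimum, and SNORA70, with 18 and 10, just outside it.

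**Figure D3:**
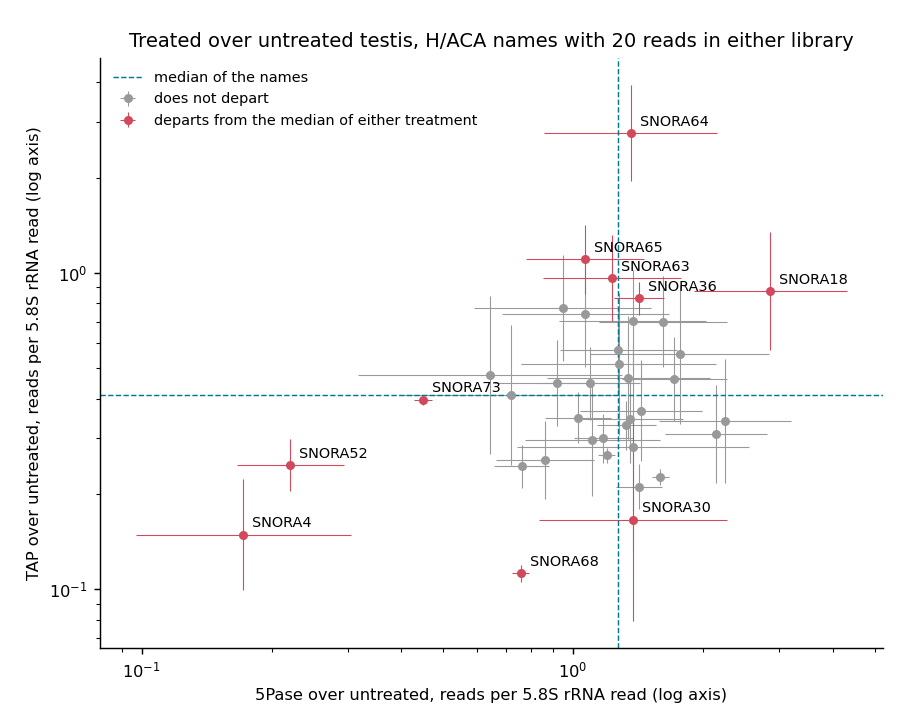
Ratio of TAP over untreated testis (vertical axis) against 5Pase over untreated testis (horizontal axis), per 5.8S rRNA read and both on logarithmic axes, for the 37 H/ACA names with 20 or more reads in either library of both comparisons (SNORA44 and SNORA77 had too few with 5Pase). Bars are 95% counting intervals and dashed lines the medians, 0.410 and 1.27. SNORA64, SNORA65, SNORA63 and SNORA36 lay high for TAP and near the median for 5Pase, SNORA73 and SNORA52 lay low for 5Pase and within 2-fold of the median for TAP, and SNORA4 lay low for both.

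The third comparison set spermatogonia after RppH against testis after TAP, the testis treatment that also opens caps and triphosphates. The summed level was 41692 and 35234 RPM in the 2 spermatogonia libraries (38463 ± 4566, SD, n = 2) against 23908 RPM in testis. The ratios were 1.74 (1.71 to 1.78) and 1.47 (1.44 to 1.51), with a mean of 1.61 ± 0.191. Per listed read they were 1.36 and 0.760 (1.06 ± 0.423), so that the direction of the sum differed between the replicates on that scale. The sum also turned on SNORA8. Without it, the other 61 names had a ratio of 0.740 ± 0.0783. Against testis after 5Pase or untreated testis, the ratio with all names was 0.501 or 0.469.

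Of the 62 names, 51 had 20 or more reads in either library for both replicates, and their ratios had medians of 1.71 and 1.92. Departures were taken from the medians of all names with enough reads for a replicate, 1.74 over 54 names in replicate 1 and 1.92 over the 51 in replicate 2. In both replicates, 22 names (43.1%) were more than 2-fold higher and 14 (27.5%) more than 2-fold lower, against 55.3% and 18.2% of all names listed for both sources. Per listed read, 14 names were higher and 15 lower by as much in both replicates, against 48.4% and 22.6% of all such names, so that the excess of higher over lower names held only per 5.8S rRNA read. In both replicates, 13 names (25.5%) departed above the median and 20 (39.2%) below, against 25.5% and 34.9% of all such names. Departures were therefore about as frequent as among all such names. The 2 sets were not quite alike, since the 51 members included SNORA32 and SNORA79, which were not listed in testis. Both were counted as higher, and SNORA79 also as departing above, whereas names of this kind were left out of the background. A name with under 20 reads in TAP testis entered only through its spermatogonia reads. Likewise, a name with under 20 reads in a spermatogonia library entered only through TAP testis. The counts of higher and lower names and of departures therefore depend on this filter and on the depth of each library. The replicates lay closer to each other. Of 48 names, 44 lay within 2-fold of the median ratio of replicate 2 over replicate 1 (0.965), although the read counts differed by more than sampling noise (chi-square 9.99 times its 53 degrees of freedom). The authors call them biological replicates, and the labels do not say whether the replicates came from separate animals.

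SNORA8 had the highest ratio of the 51 names. It had 529 reads in untreated testis, 189 after TAP, 495 after 5Pase, and 28389 and 9849 in spermatogonia. Its level was 1673, 353 and 2379.85 RPM in the testis libraries and 22951 and 19102 RPM in spermatogonia (21026 ± 2722), so that both spermatogonia libraries lay above all 3 testis libraries. The ratio to TAP testis was 65.1 (56.4 to 75.1) and 54.2 (46.9 to 62.6). SNORA14, with 52, 30 and 77 reads in testis and 1855 and 688 in spermatogonia, had ratios of 26.8 (18.7 to 38.4) and 23.8 (16.5 to 34.4). SNORA2, with 92, 72 and 104 reads in testis and 3905 and 1373 in spermatogonia, had ratios of 23.5 (18.6 to 29.7) and 19.8 (15.6 to 25.1). These 3 names held 66.2% and 65.6% of the H/ACA reads of the spermatogonia libraries and were above every testis library in each replicate.

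Names with few reads in testis also departed upward. SNORA13, SNORA40, SNORA79, SNORA38, SNORA30, SNORA46 and SNORA62 had under 20 reads in TAP testis and met the minimum only through spermatogonia. Such names could be compared only where their spermatogonia reads were many, so their upward departure was partly set by the filter. SNORA13 had 3, 1 and 4 reads in the untreated, TAP and 5Pase libraries and 91 and 41 in spermatogonia, with ratios to TAP testis of 39.4 (exact interval 6.90 to 1574) and 42.6 (7.23 to 1724). SNORA40 had 2, 0 and 3 reads in testis and 43 and 27 in spermatogonia, at least 6.21-fold and 9.36-fold higher than the limit of 3 reads in TAP testis. SNORA79 had none in testis and 41 and 24 in spermatogonia, at least 5.92-fold and 8.32-fold higher. SNORA32, also without a testis read, had 31 and 33 reads in spermatogonia, at least 4.48-fold and 11.4-fold higher, and departed in replicate 2 only. SNORA38 was better read, with 6, 8 and 5 reads in testis and 167 and 66 in spermatogonia, and ratios of 9.05 (4.45 to 18.4) and 8.58 (4.12 to 17.9). SNORA30 had ratios of 6.50 and 6.35, SNORA9 of 6.33 and 5.03, and SNORA62 of 3.99 and 6.03. SNORA3, SNORA46 and SNORA67 completed the 13, with ratios of 3.78 to 5.10. These departures share the TAP library as reference with the comparison of treatments, in which SNORA30 was low. Against 5Pase testis, 8 of the 13 names also departed above the median in both replicates (SNORA2, SNORA3, SNORA8, SNORA9, SNORA13, SNORA14, SNORA38 and SNORA67). SNORA30, SNORA46 and SNORA62 did not. SNORA40 and SNORA79, with 3 and 0 reads in 5Pase testis, departed above the median in replicate 2 only. Their ratios to 5Pase testis were 2.41 and 3.63 for SNORA40 and at least 2.30 and 3.23 for SNORA79, with wide intervals. The level of SNORA30 was 109 and 107 RPM in spermatogonia against 16.8 RPM after TAP, 139 RPM after 5Pase and 101 RPM in untreated testis, so that its ratio to 5Pase testis was 0.783 (0.524 to 1.17) and 0.765 (0.488 to 1.20). For SNORA46 that ratio was 0.598 (0.390 to 0.916) and 0.807 (0.508 to 1.28), and for SNORA62 it was 0.814 (0.497 to 1.33) and 1.23 (0.733 to 2.07), so that these 3 names were higher in spermatogonia than in TAP testis but were not higher than in 5Pase testis beyond counting error.

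SNORA43, SNORA26 and SNORA76 were nearly absent from the spermatogonia reads. SNORA43 had 356, 181 and 275 reads in untreated, TAP and 5Pase testis and 3 and 1 in spermatogonia, with ratios to TAP testis of 0.00718 (exact interval 0.00147 to 0.0213) and 0.00574 (0.000145 to 0.0324). SNORA26, a guide for 28S rRNA, had 328, 183 and 287 reads in testis and 5 and 1 in spermatogonia, with ratios of 0.0118 (0.00487 to 0.0288) and 0.00568 (exact interval 0.000143 to 0.0320). SNORA76 had 128, 97 and 92 reads in testis and 1 in each spermatogonia library. Every testis library was above both spermatogonia libraries for each of the 3 names, by RPM as well as by reads.

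More deeply read names were low too. SNORA72, among the leading 4 in testis, had 3810, 1462 and 3996 reads there and 227 and 121 in spermatogonia, with ratios of 0.0673 (0.0585 to 0.0774) and 0.0860 (0.0715 to 0.104). SNORA36 had 444, 625 and 416 reads in testis and 43 and 26 in spermatogonia, with ratios of 0.0298 (0.0219 to 0.0406) and 0.0432 (0.0292 to 0.0640). SNORA28, an 18S rRNA guide, had 4237, 1901 and 3335 reads in testis and 964 and 250 in spermatogonia, with ratios of 0.220 (0.203 to 0.237) and 0.137 (0.120 to 0.156). SNORA65, high for TAP within testis, had 14 and 3 reads in spermatogonia and ratios of 0.0345 and 0.0177. SNORA77 had 1 read in each spermatogonia library, SNORA4 had 8 and 2, and SNORA24 had 32 and 16, with ratios of 0.204 and 0.245. SNORA73 and SNORA68 departed less far, with ratios of 0.397 and 0.411 for SNORA73 and 0.677 and 0.561 for SNORA68. The others of the 20 were SNORA16, SNORA18, SNORA31, SNORA44, SNORA51, SNORA52, SNORA64 and SNORA66, with ratios of 0.187 to 0.940. Some members of the downward group had been high for TAP within testis (SNORA18, SNORA36, SNORA44, SNORA64, SNORA65 and SNORA77), and since the TAP library was the reference of both comparisons, the 2 departures are not independent of each other. Against 5Pase testis, 15 of the 20 names also departed downward in both replicates, among them SNORA18, SNORA36 and SNORA65. SNORA16, SNORA44 and SNORA64 did not, and SNORA4 and SNORA77 had too few reads.

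SNORA43 and SNORA17 are shown together because their genes are neighbours and their names differed in spermatogonia.
Snora43: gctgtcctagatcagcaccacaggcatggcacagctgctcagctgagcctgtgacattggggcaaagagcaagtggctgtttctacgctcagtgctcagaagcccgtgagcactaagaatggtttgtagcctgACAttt
Snora17: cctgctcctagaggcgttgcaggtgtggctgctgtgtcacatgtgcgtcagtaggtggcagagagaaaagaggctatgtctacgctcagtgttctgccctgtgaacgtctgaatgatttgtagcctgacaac
Snora43 (chr2:26637847-26637985, minus strand) and Snora17 (chr2:26639190-26639321, minus strand) were 1204 bases apart on the same strand, in no annotated host gene, and were 67.8% identical. SNORA17 had 17, 16 and 6 reads in testis and 56 and 15 in spermatogonia, with a ratio to TAP testis of 1.52 (0.870 to 2.64) in replicate 1 and too few reads in replicate 2, whereas SNORA43 had the ratios near 0 given above. In testis SNORA43 was thus the more read name of the pair and in spermatogonia SNORA17 was. The 3 names of Snhg12 also differed in spermatogonia, with ratios of 1.52 and 2.02 for SNORA61, 0.775 and 0.940 for SNORA44 and 0.353 and 0.511 for SNORA16.

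A few names differed more than 2-fold between the spermatogonia replicates and are therefore less certain. SNORA53 had 608 and 70 reads, or 492 and 136 RPM, a ratio of replicate 2 over replicate 1 of 0.276 (0.216 to 0.354), and its ratio to TAP testis was 3.47 in replicate 1 and 0.958 in replicate 2. SNORA29, the fourth name in replicate 1, had 2731 and 522 reads, or 2208 and 1012 RPM (0.459, 0.418 to 0.504), and its ratio to TAP testis was 5.45 and 2.50. SNORA75 and SNORA32 were the names more than 2-fold higher in replicate 2, with ratios of 2.20 (1.23 to 3.92) and 2.55 (1.56 to 4.17). By interval alone, 6 of the 48 names were higher in replicate 2 and 12 were lower. At the minimum of 20 reads, SNORA77, with 20 reads in TAP testis, was just inside, and SNORA33, with 6 in TAP testis and 19 in replicate 1, and SNORA5, with 8 and 19 in replicate 2, were just outside.

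**Figure D4:**
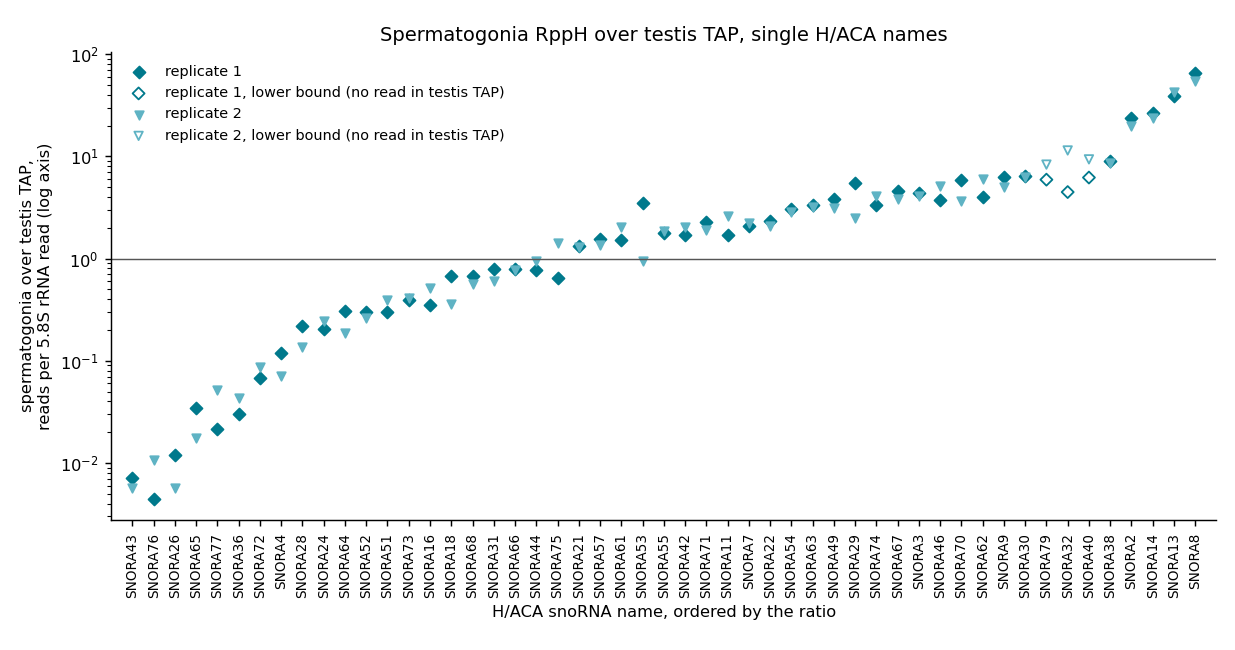
Ratio of spermatogonia after RppH over testis after TAP, per 5.8S rRNA read (logarithmic vertical axis), for the 51 H/ACA names with 20 or more reads in either library for both replicates, ordered by the ratio, with 1 point per replicate. Open points are lower bounds against 3 reads for names without a read in TAP testis, and the line marks equal levels. SNORA8 lies at 65.1 and 54.2 and SNORA43 at 0.00718 and 0.00574, and the replicates of most names lie close together.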

How the data were processed

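The authors treated 600 ng of total testis RNA with 25 U of TAP for 1.5 h or 20 U of 5Pase for 0.5 h, or left it untreated. For spermatogonia, RNA was treated with 25 U of RppH for 1 h, with 500 ng given in the methods and 600 ng in the labels. Libraries were sequenced with 300-base single-end reads. The adaptor was removed with Cutadapt and reads without it were discarded, and the deposited values are counts of reads that the authors assigned to each name with RepeatMasker, whose versions are not given in the sources used here. RepeatMasker divides reads among alike families. In the untreated and 5Pase tables, 1 line had a name and no count and was left out, as were lines of totals.

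Reads of names beginning with SNORA were divided by 5.8S rRNA reads (RPM) or by listed reads (Python 3.11.15, SciPy 1.17.1). Ratios were given for names with 20 or more reads in either library, with 95% intervals from the log ratio and the reciprocal counts. A count of 3 or fewer was set at 3 for calling departures. In the text, ratios on 1 to 3 reads are given as counted, with an exact interval. A departure was a distance over 2-fold from the median with an interval that excluded it. The 5 most read names of each library, every departing name or the 10 farthest of a longer list, SNORA73 and names at the minimum were named, and others were chosen after their values were seen (SNORA17, SNORA16 and SNORA61 as gene neighbours, and the other names with values). The intervals were checked on counts simulated with counting error only and equal depth, where they held the true ratio in 93.7% to 95.2% of cases. These counts had the same error that the intervals assume, so the check cannot speak to variation between real libraries. The members and lists were chosen with earlier results of these data known. Sequences are those of GENCODE M21 (GRCm38). Alternatives were another denominator, minimum, fold or reference for departures, leaving out a leading name or a replicate, and 10 in place of 5 leading names.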

Additional observations from a re-analysis of the deposited data

How the results depend on the processing

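The summed TAP ratio (0.291) was 0.537 per listed read, 0.471 per sequenced read, 0.251 without SNORA73 and 0.410 as the median of single names, and it turned to 2.47 per box C/D read. The 5Pase ratio (0.936) was 0.661 per listed read, 0.715 per sequenced read and 0.593 per box C/D read, and it turned to 1.12 without SNORA73 and to 1.27 as the median of single names. The spermatogonia ratio (1.61) was 1.06 per listed read, 1.07 per box C/D read and 1.83 as the median of single names, and it turned to 0.740 without SNORA8, 0.501 over 5Pase testis and 0.469 over untreated testis. Without either replicate it was 1.47 to 1.74, and 36 to 38 names departed in place of 33. Leaving 18S and 28S rRNA out of the listed reads, a choice made after seeing the data, gave 1.45. Counting single names per listed read, a choice also made after seeing the data, gave 4 names over 2-fold higher and 9 over 2-fold lower for TAP in place of 2 and 25, 1 higher for 5Pase in place of 4, and 14 higher for spermatogonia in place of 22. With a 3-fold distance, 4 names departed for TAP and 2 for 5Pase in place of 10 and 4, and 7 departed for 5Pase when distances were taken from the summed ratio. The 10 most read names held 91.5%, 85.0% and 89.9% of H/ACA reads in untreated, TAP and 5Pase testis and 89.6% and 88.7% in spermatogonia. Adding lettered names together changed nothing, since no name had a letter. The cause of these changes was not tested. No paired test was possible because each testis treatment had 1 library. Depth limited names under 20 reads, for which no ratio was read, and no comparison of treatments had a replicate.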
